A study of Mus musculus with 30 samples.

Results

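The cytosolic ribosomal protein genes, which encode the proteins of the ribosomes that translate nuclear-encoded mRNAs, were followed through RNA sequencing of bone marrow–derived dendritic cells (BMDCs). The genes were taken by symbol, as protein-coding genes named Rpl or Rps with a number, plus Rplp0, Rplp1, Rplp2 and Rpsa. This gave 77 of the 43629 genes in the table, 31 of the small subunit (Rps) and 46 of the large subunit (Rpl). S6 kinase genes (9), other protein-coding symbols such as the Rpl22l1 and Rpl39l paralogs (17) and Rpl or Rps pseudogenes (268) were left out. The symbol rule also does not reach Fau, whose protein product carries a ribosomal protein fused to a ubiquitin-like part.

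The libraries came from BMDCs of wild-type mice (WT, C57BL/6J) and of mice with a deletion of the calcium channel subunit gene Cacnb3 (Cacnb3-/-, labelled Cacnb3-KO, on C57BL/6N). The cells were grown from bone marrow of adult animals of both sexes in medium with GM-CSF for 6 days. Each genotype had 5 cultures, and each culture gave 3 libraries, named ctrl, 0p5h and 24h, so that each of the 6 groups held 5 libraries. In the protocol BMDCs received 500 µM ATP for 30 min and were collected at once or 24 h later. The paper instead places the early collection 30 min after the pulse. The treatment field names vehicle for the libraries named 0p5h and the ATP pulse for those named ctrl, the reverse of what the names say. It places the libraries named 24h after ATP, as their names do. Results are therefore given under the library names, and which of the sets ctrl and 0p5h was unstimulated is unsettled. The deletion and the substrain differ together between the genotypes and cannot be told apart. The labels do not say whether a culture number marks 1 animal. In bulk RNA, fewer cells of a type and less RNA per cell cannot be told apart.

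The Cacnb3 gene count did not check the genotype label, since it stood at 573 to 1331 CPM (counts scaled to a common normalised library total) in Cacnb3-/- libraries and 1035 to 2143 CPM in WT libraries. Which exons the allele lacks is not given in the sources used here, and WT and Cacnb3-/- stand for the labels throughout. Dendritic cell markers (Itgax, Cd74, MHC class II genes and others, 10 genes) summed to 16300 to 40086 CPM over the 30 libraries. Macrophage markers (10 genes) summed to 833 to 3424 CPM and granulocyte markers (10 genes) to 131 to 691 CPM, with none at 0 in any group. Markers of T cells summed to 5.61 to 23.3 CPM, those of B cells to 0.614 to 5.10 CPM, and those of erythroid cells to at most 0.399 CPM with Hbb-bs at 0 in 5 of the 6 groups. Total counts ran from 8237393 to 32164225 per library. Mitochondrially encoded genes took 0.706 to 5.61% of counts in WT and 2.16 to 16.5% in Cacnb3-/- libraries. The slope of log2 level, relative to the mean of the libraries, on GC content was -0.373 to -0.538 (log2 per 10 points of GC) in 4 of the 5 Cacnb3-/- libraries named 24h and 0.0636 in the other, that of p974s865. It was also -0.428 in the ctrl and -0.370 in the 0p5h library of Cacnb3-/- p974s852. In the WT 24h library of p974s856 it was 0.565.

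A ribosome is built from a small subunit, which reads the mRNA, and a large subunit, which forms peptide bonds, and holds most ribosomal proteins in a single copy. Because the proteins are needed in like numbers, their genes are known for levels that move together. Most of their mRNAs belong to the TOP class: transcription begins at a C that is followed by an unbroken run of pyrimidines (C or T in the DNA), and the mTOR pathway sets how well such mRNAs are translated. Dendritic cells are known to raise translation early after activation by microbial products.

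Part of the annotated promoters show this start. RefSeq (GRCm38.p6) gave 67 promoters for 57 of the 77 genes, each 250 bases before to 50 bases from the start. In 13 of the 57 genes (22.8%) the annotated start base was a C followed by at least 4 pyrimidines, against 3.01% of 27025 genes in the same table. The first base in such a table can be some bases off, and with any C start of this kind within 10 bases on either side the share was 53.7% of the 67 promoters against 30.7% of all 32851. The letters CCGGAAG, looked for on both strands, stood in 37.3% of the members' promoters and 8.86% of all promoters, GGGCGG in 61.2% and 35.7%, AAGATGGC in 10.4% and 2.75%, and TATAAA in 8.96% and 13.6%. These are matches of letters, and none of them was measured as a bound site here. Promoters of 4 members are shown because they carry different lengths of this run and belong to genes described below. Each is given 5′ to 3′ from 60 bases before the annotated start to 30 bases from it, with the run that begins at the start base in capitals.
Rplp2 (chr7:141447591-141447680, plus strand): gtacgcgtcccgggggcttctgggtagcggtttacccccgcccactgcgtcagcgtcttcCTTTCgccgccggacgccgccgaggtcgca
Rpl28 (chr7:4792905-4792994, plus strand): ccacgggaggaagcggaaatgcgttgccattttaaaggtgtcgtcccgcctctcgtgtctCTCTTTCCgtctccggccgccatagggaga
Rps6 (chr4:86857338-86857427, minus strand): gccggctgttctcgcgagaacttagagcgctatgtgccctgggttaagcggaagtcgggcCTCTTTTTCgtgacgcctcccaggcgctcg
Rps3a1 (chr3:86142639-86142728, minus strand): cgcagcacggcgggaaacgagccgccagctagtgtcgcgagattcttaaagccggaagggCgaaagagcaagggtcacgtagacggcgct
The run was 5 bases long in Rplp2, 8 in Rpl28 and 9 in Rps6. In Rps3a1 the annotated start was a C followed by a purine, so the run was 1 base.

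The first question for each gene was how much of it the table can see. Ribosomal protein genes have many processed copies in the mouse genome, and reads with several alignments were not counted. Of the 50-base windows of each coding sequence, the share found letter for letter elsewhere in GRCm39 was 100% in 30 of the 77 genes, under 50% in 9, and 0 in 1. Across the 77 genes the mean level was lower where this share was larger (Spearman's rho -0.853, a description over genes that share libraries). The level here is RPKM, the normalised count (CPM) per kilobase of exon. The median gene with all windows shared stood at 3.74 RPKM and the median gene with under 50% shared at 475 RPKM. The order of levels below is therefore an order of countable reads, and its relation to the order of the RNAs was not tested.

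**Figure D1:**
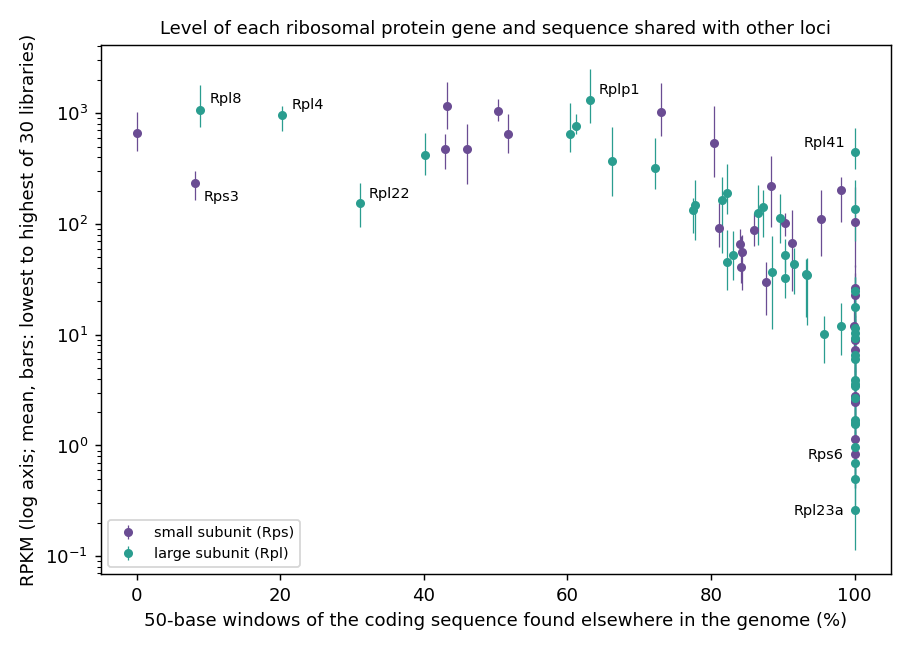
Mean RPKM of each of the 77 ribosomal protein genes over 30 libraries (log axis, bars from the lowest to the highest library, no lower bar for Rpl23a, which was at 0 in some libraries) against the share of its 50-base coding windows found elsewhere in the genome. Genes on the left, such as Rps3 and Rpl8, stand above 100 RPKM, while the genes at 100% reach down to Rpl23a at 0.264 RPKM, with Rpl41 at 446 RPKM as the highest of them.

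Among the highest 5 genes by mean RPKM over the 30 libraries were Rplp1 (1329 ± 362 SD), a protein of the stalk that recruits translation factors, Rps15 (1152 ± 245), Rpl8 (1072 ± 219.6) and Rps26 (1023 ± 338), which lies at the mRNA exit channel. The spreads of these genes overlap, so their order is not settled by these data. By CPM, with no correction for length, 0 of the highest 5 by RPKM stayed among the highest 5, which shows how far the order depends on the scale. The lowest 5 were Rpl5 (0.973 ± 0.337), Rps6 (0.838 ± 0.25), Rpl21 (0.696 ± 0.11), Rpl24 (0.501 ± 0.253) and Rpl23a (0.264 ± 0.126), each with all windows shared. Rpl5, a partner of 5S rRNA, and Rps6, the substrate of the S6 kinases, are core proteins of every ribosome. Rpl24 and Rpl23a were too low for the count filter in at least 1 comparison, and 76 of the 77 genes passed it over all 30 libraries.

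The remaining genes fixed by role fell between these ends. The other stalk proteins Rplp0 (gene at chr5:115559467-115563727, GRCm38) and Rplp2 (chr7:141447370-141451585) stood at 645 ± 144 and 367 ± 149.9 RPKM. Rps14 (647 ± 132), Rpl41 (446 ± 99.5, the shortest protein of the set) and Rpl13a (419 ± 81.1) were of the same order. Rps3a1 (219.6 ± 87.7), Rpl22 (154 ± 39.6, needed for T cell development), X-linked Rps4x (102 ± 13.1) and Rps19 (92.4 ± 19.5, mutated in Diamond-Blackfan anaemia) followed. Rpl39, at the peptide exit tunnel, stood at 37.0 ± 16.5 RPKM. Rpsa (12.1 ± 4.08), Rpl3 (10.3 ± 2.5), Rpl10 (6.02 ± 1.1), Rps27a (2.52 ± 0.805, made as a fusion with ubiquitin), Rpl36a (1.71 ± 0.48) and Rpl11 (1.61 ± 0.343, the other partner of 5S rRNA) were at the low end, all with at least 95.7% of windows shared.

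Together the 77 genes took 1.36 to 2.59% of the counts of a library. The mean share was 1.72% ± 0.284 in WT ctrl, 1.79% ± 0.262 in WT 0p5h and 1.93% ± 0.260 in WT 24h libraries (SD, n = 5). In Cacnb3-/- it was 2.08% ± 0.135 in ctrl, 2.22% ± 0.253 in 0p5h and 1.89% ± 0.177 in 24h libraries. Out of counts outside mitochondrial genes, the 24h means became 2.10% in Cacnb3-/- and 1.99% in WT, so the order of the genotypes at 24h turned with the denominator.

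The genes moved together from library to library. For 59 members with a mean of at least 10 CPM, each gene's log2 level over the 30 libraries was compared with the median of the other members. The median Pearson r was 0.71 and 20 of the 59 genes (33.9%) were over 0.8, against a median of -0.06 and 0.976% of 8296 other genes of that level. These points share libraries, total counts and cultures, and the values are descriptions. Rps21 lay closest to the rest (r = 0.96), and Rps18, Rpl26 and Rpsa, the laminin receptor precursor, were at 0.93, 0.91 and 0.90 (chosen after their values were seen). Rps20 and Rps9 kept the most constant ratio to the members' median, each with an SD of 0.13 log2 units over the 30 libraries.

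Some members did not move with the rest. Rpl7a (r = -0.59), Rpl3 (-0.55), which lies near the peptidyl transferase centre, and Rpl6 (-0.48) ran against it, and Rps16 (0.04), near the decoding site, did not follow it. Their ratio to the members' median had an SD of 0.66, 0.56, 0.55 and 0.58, and that of Rpl39 (r = 0.45) was 0.64. For Rpl7a, Rpl3, Rpl6 and Rps16 the lowest ratio was in the same library, Cacnb3-/- p974s843 at 24h. That library had the fewest counts (8237393), the highest mitochondrial share (16.5%) and a GC slope of -0.473. In these genes 93.2% (Rpl6) to 100% (Rps16) of windows were shared with other loci. The part of these in the ratios was not tested. Outside the family, the genes whose levels over the 30 libraries were most like the members' median were Psmb1, a proteasome subunit (r = 0.914), Sem1 (0.912), Pfdn5, a prefoldin subunit (0.911), Ndufb10 (0.902), Nop10 (0.898) and Naca (0.898).

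**Figure D2:**
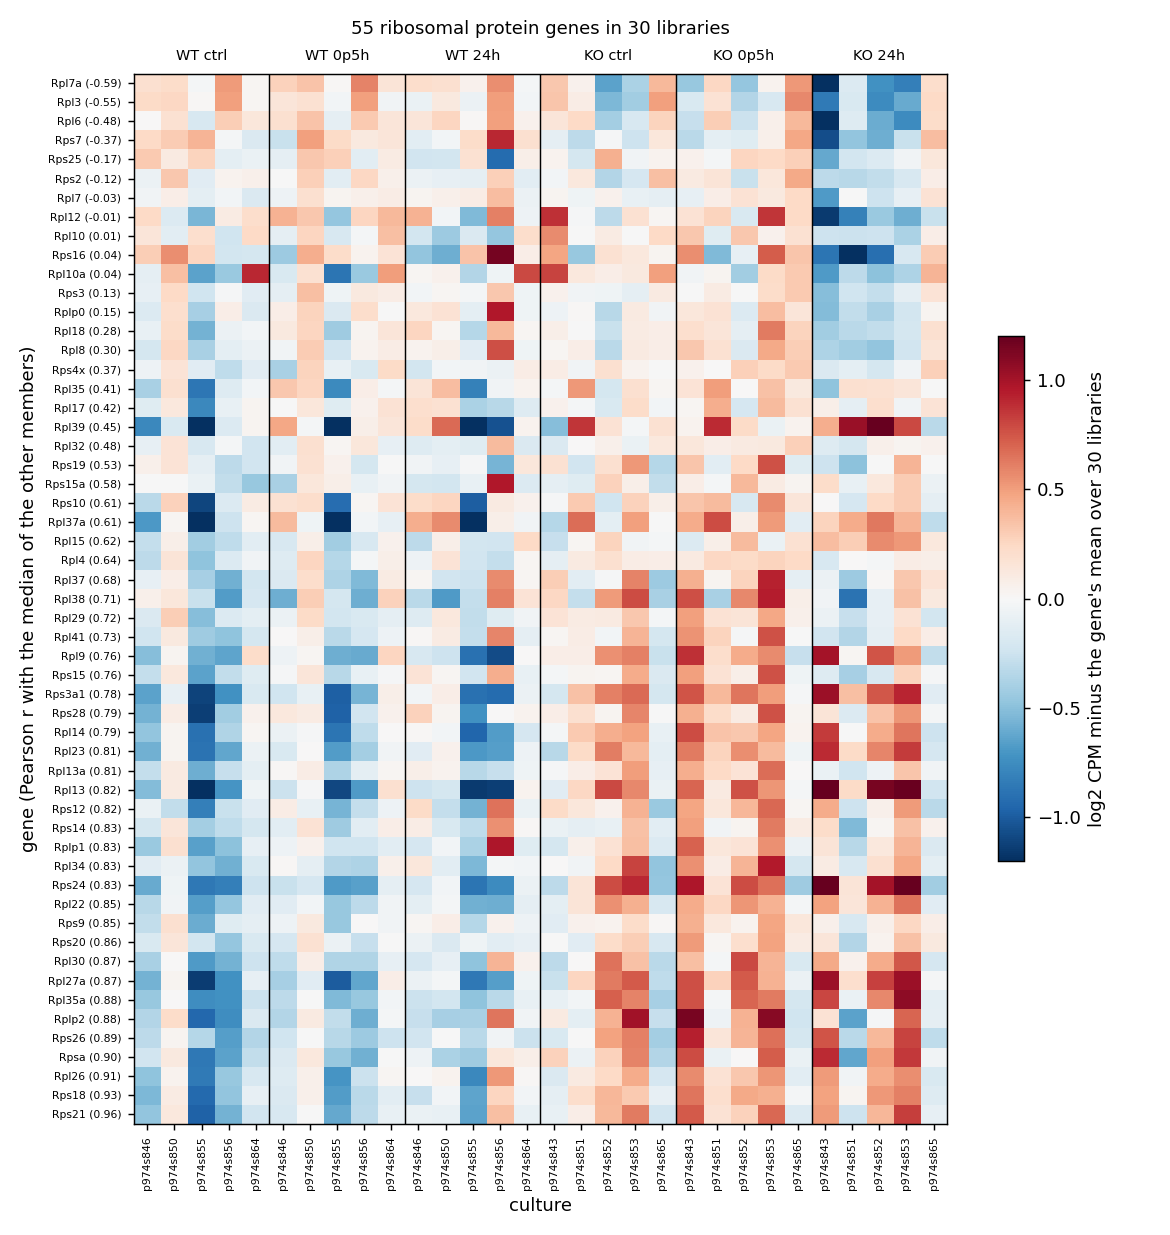
Log2 CPM of 55 of these ribosomal protein genes minus each gene's mean over 30 libraries (colour, stopping at 1.2 either way), with libraries in 6 groups of 5 cultures and genes ordered by their Pearson r with the median of the other members. Most genes in the lower part share columns of one colour, blue in WT p974s855 and red in Cacnb3-/- p974s853, while Rpl7a, Rpl3 and Rpl6 at the top are blue in Cacnb3-/- p974s843 at 24h.

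The median deviation of the 59 members from their own means summarises a library. In WT it ran from -0.55 to 0.12 (log2) in ctrl, -0.36 to 0.15 in 0p5h and -0.34 to 0.11 in 24h libraries. In Cacnb3-/- it ran from -0.08 to 0.31 in ctrl, 0.06 to 0.47 in 0p5h and -0.20 to 0.32 in 24h libraries. The genotypes overlapped in every set. WT p974s855 was the lowest library in all 3 sets and Cacnb3-/- p974s853 the highest in all 3. Over the 30 libraries this median had a Pearson r of 0.55 with the mitochondrial share, -0.57 with total counts, -0.19 with the GC slope and 0.70 with the summed T cell markers. With the summed markers of B cells, macrophages, granulocytes and erythroid cells r was 0.47, 0.37, 0.36 and 0.20. With those of dendritic cells and proliferation it was -0.28 and 0.006. Their part in the results below was not tested. The alignment file names in the header give the lane, and the Cacnb3-/- minus WT difference of this median in lanes 1, 2 and 3 was 0.14, 0.34 and 0.70 in ctrl, 0.07, 0.27 and 0.81 in 0p5h, and -0.18, -0.03 and 0.46 in 24h libraries. Lane 3 held WT libraries of p974s855 alone.

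**Figure D3:**
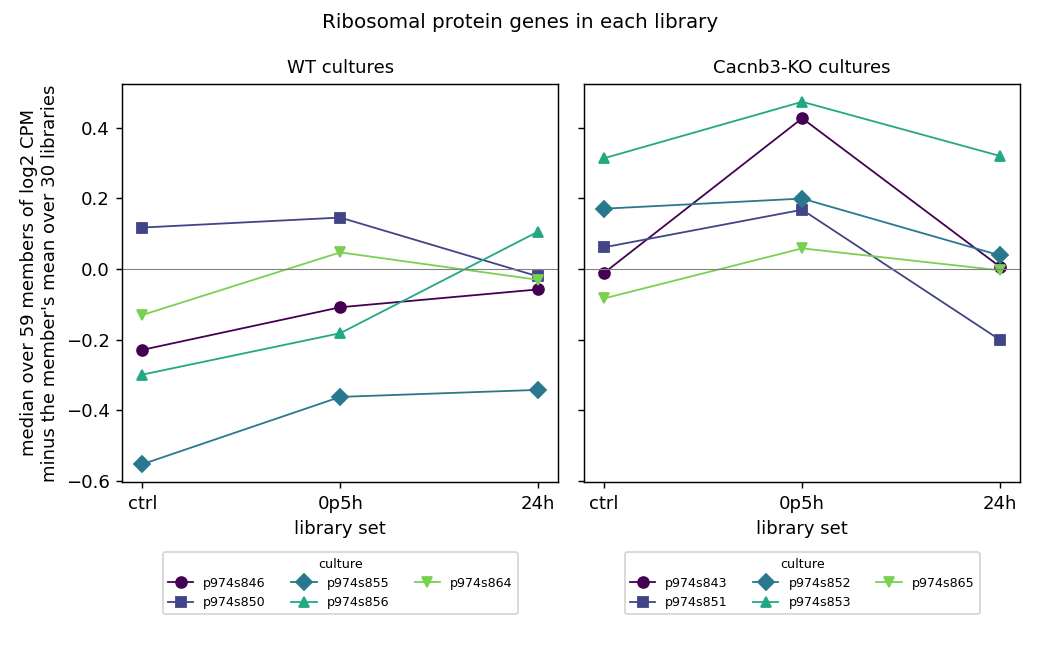
Median over 59 ribosomal protein genes of log2 CPM minus the gene's mean over 30 libraries, for 5 WT (left) and 5 Cacnb3-/- (right) cultures, with lines joining the 3 libraries of a culture. All 5 Cacnb3-/- cultures are above 0 in the libraries named 0p5h and lower again at 24h, and WT p974s855 is lowest throughout.

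In the libraries named ctrl, most ribosomal protein genes had a higher mean in Cacnb3-/- than in WT BMDCs, by less than the test could call. Of 75 members tested, 65 had a positive log2 fold change, and the median was 0.27 against 0.03 for all genes tested. None passed (0 of 75, edgeR's quasi-likelihood test, Benjamini-Hochberg adjusted p under 0.05), as did 0% of all genes, and DESeq2 called 0 members too. At an unadjusted p under 0.05, 21 members were higher and 0 lower, while 7.95% of all genes were higher. The medians of the small and large subunit genes were 0.26 and 0.27. The dendritic cell markers summed to 27020 to 39896 CPM in WT and 17856 to 31817 CPM in Cacnb3-/- ctrl libraries (2 of 10 estimates positive, median -0.22), and the macrophage markers to 833 to 2513 and 1259 to 3313 CPM (7 of 10 positive, median 0.30). Of the T cell markers tested, 2 of 2 were positive (median 0.50), of the B cell markers 1 of 2 (0.13) and of the granulocyte markers 4 of 7 (0.29). The part of these markers in the members' differences was not tested.

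Rps3a1, a small subunit protein (gene at chr3:86137940-86142702), had the smallest adjusted p. Its ctrl level was 127, 185, 91.8, 120.1 and 175 CPM in the WT cultures p974s846, p974s850, p974s855, p974s856 and p974s864, and 171, 253, 302, 317 and 171 CPM in the Cacnb3-/- cultures p974s843, p974s851 and p974s852, followed by p974s853 and p974s865. This order of cultures is kept below. Cultures p974s843 and p974s865 lay within the WT range and the other 3 lay above it. The log2 fold change was 0.82 ± 0.24 (SE, 1.76-fold, edgeR adjusted p = 0.245). Rpl22 followed, at 351 ± 59.2 CPM in WT and 498 ± 111 CPM in Cacnb3-/- (SD, n = 5), a log2 fold change of 0.53 ± 0.18 (adjusted p = 0.249). The differences of the stalk proteins were 0.66 ± 0.28 for Rplp2 (adjusted p = 0.281), 0.35 ± 0.19 for Rplp1 (0.358) and 0.04 ± 0.15 for Rplp0 (0.900) in edgeR, and they were not tested against each other. When each culture was left out, the count of 21 ranged from 5, without Cacnb3-/- p974s852, to 33, without WT p974s850. The share of all genes in these fits is not given, so whether all genes moved likewise cannot be read from these counts. The ctrl library of p974s852 had a GC slope of -0.428, and its part in this count was not tested.

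In the libraries named 0p5h most members again had a higher mean in Cacnb3-/-. Of 76 members tested, 71 had a positive log2 fold change, with a median of 0.33 against 0.02 for all genes. Again 0 members and 0% of all genes passed in edgeR, with 31 members higher and 0 lower at an unadjusted p under 0.05, against 8.36% of all genes higher. With each culture left out, the 31 ranged from 18, without Cacnb3-/- p974s853, to 35, without Cacnb3-/- p974s851. The share of all genes in these fits is not given. DESeq2 called 5 members, all higher, against 0.446% of all genes. The 5 WT and 5 Cacnb3-/- libraries did not overlap in 3 members, all higher and Rpl14 and Rpl22 among them, as in 0.921% of all genes. With lane as a term, 26 members were higher at an unadjusted p under 0.05 in this set (8.28% of all genes) and 26 in ctrl (8.61%), and 0 passed in either. At 0p5h the dendritic cell markers summed to 27966 to 40086 CPM in WT and 21592 to 37604 CPM in Cacnb3-/- libraries (3 of 10 positive, median -0.11), and the macrophage markers to 943 to 2256 and 1053 to 3424 CPM (7 of 10 positive, median 0.25). Of the T cell markers tested, 2 of 3 were positive (median 0.24), of the B cell markers 1 of 3 (-0.05) and of the granulocyte markers 5 of 7 (0.31). The part of these markers was not tested.

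Rps3a1 had 0p5h levels of 168, 186, 101, 134 and 208 CPM in WT and 335, 259, 309, 281 and 196 CPM in Cacnb3-/- cultures. Of the latter only p974s865 lay inside the WT range. The log2 fold change was 0.81 ± 0.21 (1.75-fold, edgeR adjusted p = 0.251), close to that in ctrl libraries. For Rpl22 the values were 396, 426, 318, 349 and 424 CPM and 592, 518, 627, 581 and 429 CPM, separated by the narrow gap between WT p974s850 and Cacnb3-/- p974s865. Rplp2, whose promoter is shown above, read 556, 767, 578, 473 and 697 CPM in WT and 1563, 682, 946, 1510.0 and 601 CPM in Cacnb3-/- cultures. Cultures p974s843 and p974s853 carried its difference (log2 0.81 ± 0.27, edgeR adjusted p = 0.251), and p974s851 and p974s865 lay within the WT range. Rps24, a small subunit protein that is mutated in Diamond-Blackfan anaemia, had the largest estimate of the members named here, 0.89 ± 0.24 (adjusted p = 0.251, chosen after its values were seen).

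**Figure D4:**
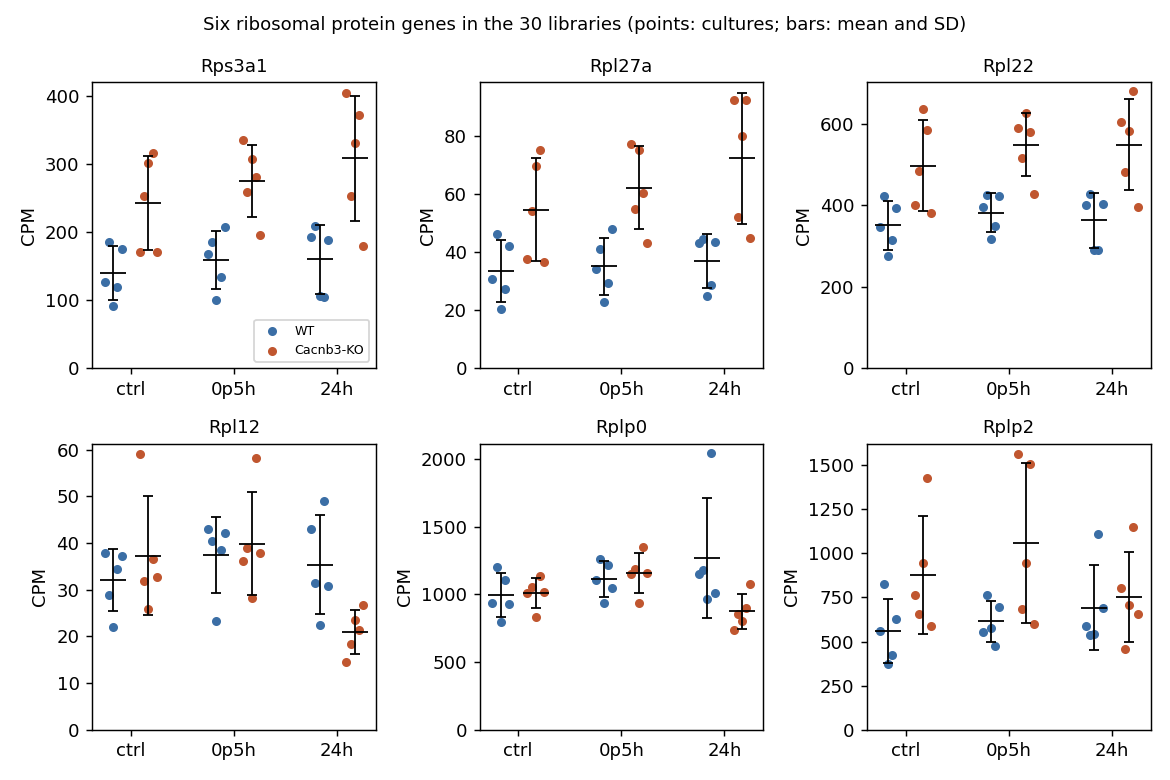
CPM of 6 ribosomal protein genes in the 30 libraries, with a point for each culture and bars for the mean and SD of 5 cultures, for WT (blue) and Cacnb3-/- (orange) in the sets ctrl, 0p5h and 24h. Rps3a1, Rpl27a and Rpl22 have a higher Cacnb3-/- mean in each set, Rpl12 and Rplp0 have a lower one at 24h alone, and the WT p974s856 library at 24h is far above the others for Rplp0 (2049 CPM).

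In the libraries named 24h the members had estimates well above 0 for some and well below 0 for others. All genes spread more in this set as well, with quartiles of -0.35 and 0.37 against -0.19 and 0.24 in ctrl. Of 75 members, 47 had a positive log2 fold change, the median was 0.08 against 0.01 for all genes, and the estimates ran from -0.74 to 1.28. In edgeR 0 members and 0% of all genes passed, and the smallest adjusted p among members, 0.0515, was just over the threshold. At an unadjusted p under 0.05, 16 members were higher and 6 lower, against 20.1% and 18.3% of all genes, so the members' shares were close to or under the background. DESeq2 called 12 members higher and 4 lower, against 13.2% and 13.2% of all genes. The dendritic cell markers summed to 21290 to 36354 CPM in WT and 16300 to 27660 CPM in Cacnb3-/- 24h libraries (2 of 10 positive, median -0.19), and the macrophage markers to 1014 to 2898 and 1093 to 2762 CPM (8 of 10 positive, median 0.25). Of the T cell markers tested, 1 of 2 was positive (median 0.20), of the B cell markers 2 of 2 (0.12) and of the granulocyte markers 3 of 7 (-0.14). The part of these markers was not tested.

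Rpl27a (gene at chr7:109519147-109522367) and Rpl13 (chr8:123102350-123105244), both of the large subunit and with all windows shared, had the smallest adjusted p. Rpl27a read 43.0, 44.5, 24.9, 28.7 and 43.5 CPM in WT and 92.2, 52.1, 79.8, 92.2 and 44.7 CPM in Cacnb3-/- cultures at 24h. The groups did not overlap, though p974s865 lay only just above the highest WT culture. The log2 fold change was 0.98 ± 0.24 (1.97-fold, edgeR adjusted p = 0.0515). Rpl13 read 20.3, 20.8, 10.9, 11.01 and 24.8 CPM and 55.5, 28.2, 53.2, 54.8 and 20.5 CPM, with p974s865 inside the WT range and p974s843, p974s852 and p974s853 far above it. Its log2 fold change was 1.28 ± 0.32 (2.43-fold, edgeR adjusted p = 0.0515). Groups without overlap were found in 2 members, both higher (Rpl27a and Rps23), as in 2.72% of all genes. Rps3a1 (0.96 ± 0.26), Rps24 (1.14 ± 0.31) and Rpl22 (0.61 ± 0.18) had positive differences here too.

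Among the members with lower Cacnb3-/- means at 24h, Rpl12, which forms the base of the stalk, came first. It read 43.1, 31.5, 22.3, 49.0 and 30.8 CPM in WT and 14.5, 18.3, 23.6, 21.4 and 26.8 CPM in Cacnb3-/- cultures. The groups overlapped, with WT p974s855 as low as the Cacnb3-/- cultures. The log2 fold change was -0.74 ± 0.22 (edgeR adjusted p = 0.0529). Rplp0, the stalk protein that binds next to it, read 1148, 1181, 967, 2049 and 1010.0 CPM and 734, 854, 804, 902 and 1076 CPM (-0.53 ± 0.21, adjusted p = 0.0948). The WT library of p974s856 stood far above its group here, and without it the count of members lower at an unadjusted p under 0.05 went from 6 to 1. The share of all genes in that fit is not given. Rpl7a (-0.67 ± 0.25), Rps16 (-0.70 ± 0.36) and Rpl6 (-0.60 ± 0.23) were the other large estimates below 0, and Rpl39 had 0.85 ± 0.39. Rplp2 and Rplp1, with 0.14 ± 0.27 and -0.06 ± 0.26, had no settled direction.

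The number called at 24h changed with single cultures and with the fit. Without Cacnb3-/- p974s865, whose 24h library lacked the GC slope of the other 4, 14 members were called higher and 7 lower, against 18.1% and 17.2% of all genes. Without WT p974s864, 13 were higher and 1 lower, against 9.57% and 9.12%. With all 30 libraries in 1 fit, 12 were higher and 7 lower, against 14.3% and 14.7%. With no filter on low counts, 8 were higher and 1 lower, against 2.47% and 2.42%. These shares are out of 25806 genes, including those with very few counts, where the filtered fit tested 12706. Lane as a term called 0 members, where the share of all genes is not given. With the 3 libraries of each culture summed, 0 of 77 members and 0% of all genes were called in edgeR (20 higher and 0 lower at an unadjusted p under 0.05, against 11.6% of all genes higher), and DESeq2 called 9 members higher, against 3.05% of all genes. Across the 59 members, the genotype estimates went down with coding length (Spearman's rho -0.44 in ctrl, -0.46 in 0p5h and -0.29 in 24h libraries, a description over genes). With GC content rho was -0.16, -0.12 and -0.33. For 24h against 0p5h in Cacnb3-/- it was -0.17 with coding length and -0.385 with GC content.

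**Figure D5:**
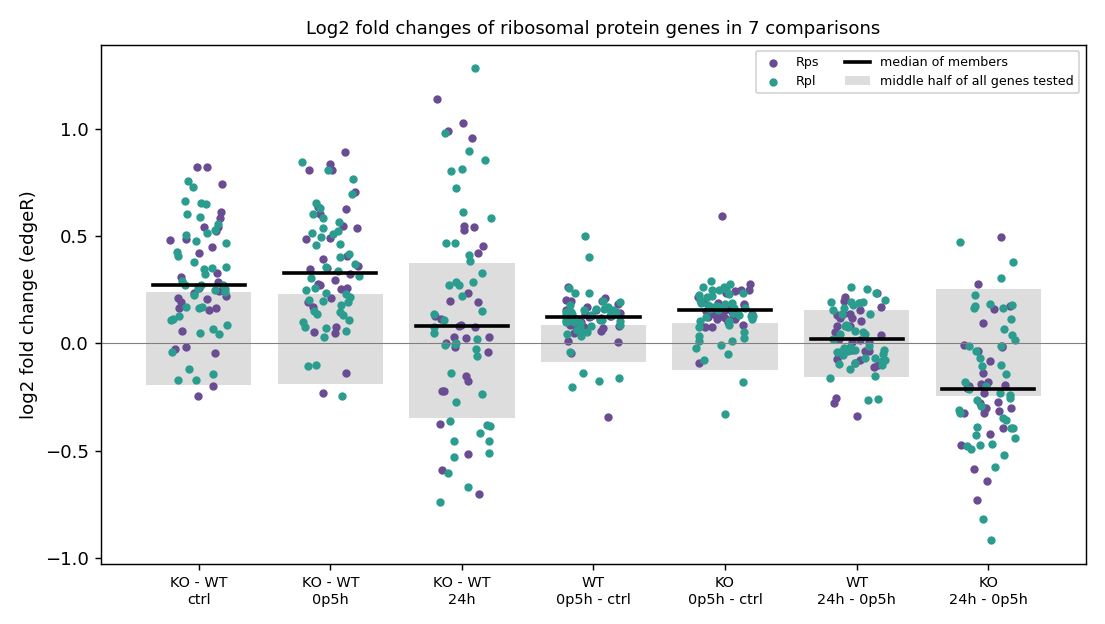
Log2 fold changes (edgeR) of the ribosomal protein genes tested in 7 comparisons, with a point for each gene (purple, small subunit; green, large subunit), a black line at the members' median and a grey box from the lower to the upper quartile of all genes tested. The members sit above 0 in both early genotype comparisons (medians 0.27 and 0.33), spread from -0.74 to 1.28 at 24h, and sit below 0 for 24h against 0p5h in Cacnb3-/- (median -0.21).

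Within WT, the libraries named 0p5h had slightly higher means than those named ctrl for nearly the whole family: 69 of 76 members, with a median of 0.13 against 0.01 for all genes. In edgeR 0 members passed against 0.29% of all genes, DESeq2 called 0, and 0 members had an unadjusted p under 0.05 against 4.54% of all genes. Libraries with the same culture number deviated together, and with the culture as a block 2 members rose, against 3.29% of all genes. Rpl12 was 1 of them and rose by 0.23 ± 0.06 (adjusted p = 0.0428). The WT Rpl12 levels were 37.9, 28.8, 21.95, 34.4 and 37.3 CPM in ctrl and 43.0, 40.4, 23.3, 38.4 and 42.2 CPM in 0p5h libraries, and every culture was higher in the second. In Cacnb3-/-, 69 of 76 members were also higher in 0p5h than in ctrl libraries, with a median of 0.16 against -0.01 for all genes. There 0 passed in edgeR (0.384% of all genes), DESeq2 and the blocked fit, and 0 had an unadjusted p under 0.05 (3.99% of all genes). The 2 smallest adjusted p values were those of Rpl10a (-0.33 ± 0.18) and Rpl18 (0.23 ± 0.14). In the blocked fit they had -0.31 ± 0.13 and 0.22 ± 0.07 (edgeR adjusted p = 0.293 and 0.196).

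In WT, 24h libraries differed little from the others. Against ctrl, 61 of 75 members had a positive log2 fold change (median 0.13), and against 0p5h 41 of 75 (median 0.02). In edgeR 0 members passed in either, against 0.0152% and 1.19% of all genes, DESeq2 called 0, and 0 members had an unadjusted p under 0.05, against 8.39% and 11.2%. These fits leave out the culture. With the culture as a block 0 members passed in either, where the share of all genes is not given. Rpl41 (0.33 ± 0.17) was among the members with the smallest adjusted p against ctrl, and Rpl10 and Rps25 (-0.26 ± 0.17 and -0.28 ± 0.19) had the smallest against 0p5h. In the blocked fit Rpl41 had 0.32 ± 0.15 (edgeR adjusted p = 0.241). Rpl10 and Rps25 had -0.26 ± 0.12 and -0.31 ± 0.12 there (edgeR adjusted p = 0.181 and 0.116).

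In Cacnb3-/- the family was lower at 24h than at 0p5h. Of 76 members, only 18 had a positive log2 fold change, with a median of -0.21 where that of all genes was near 0. In edgeR without the culture, 0 members passed against 0.88% of all genes. At an unadjusted p under 0.05, 12 members were lower and 0 higher, against 8.26% of all genes lower. The 12 ranged from 3 without p974s853 to 22 without p974s865, where the share of all genes is not given. DESeq2 called 2 lower against 1.68%. With the culture as a block, 23 members fell (8 of the small and 15 of the large subunit, 30.3% of the 76), against 14.4% of all genes, and 1 rose, Rps23 (0.45 ± 0.16, adjusted p = 0.0499), against 14.2%. The number that passed depended on the cultures: with 1 Cacnb3-/- culture left out, the blocked fit called 7 lower without p974s843 (7.58% of all genes lower), 8 lower without p974s851 (7.04%), and 34 lower and 4 higher without p974s865 (20.7% and 20%). The libraries did not overlap in 4 members, all lower (Rpl12, Rpl28, Rpl32 and Rpl4), as in 1.83% of all genes. The mitochondrial share went from a median of 5.13% to 10.5% and the GC slope from a median of 0.0585 to -0.464 between the Cacnb3-/- 0p5h and 24h libraries. With the GC trend removed the blocked fit called 23 members lower and 1 higher, against 11.9% and 12.4% of all genes. Of 10 dendritic cell markers 2 had a positive estimate (median -0.31), and the blocked fit called 5 lower and 2 higher. Of 10 macrophage markers 3 were positive (median -0.23), with 4 called lower and 1 higher. The summed dendritic cell markers ran from 21592 to 37604 CPM at 0p5h and from 16300 to 27660 CPM at 24h. The part of these in the members' fall was not tested.

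Rpl12 fell most. Its Cacnb3-/- levels were 36.2, 38.9, 28.3, 58.2 and 37.9 CPM at 0p5h and 14.5, 18.3, 23.6, 21.4 and 26.8 CPM at 24h, so that every 24h library lay under every 0p5h library. The blocked log2 fold change was -0.90 ± 0.16 (edgeR adjusted p = 0.00264). Rpl36, another large subunit protein, went from 7.81, 4.2, 5.44, 7.87 and 5.24 CPM to 3.99, 2.66, 2.82, 4.42 and 3.42 CPM and was lower in all 5 cultures (-0.78 ± 0.14, adjusted p = 0.00307). Rps16 (-0.76 ± 0.15) and Rpl7a (-0.54 ± 0.12) came next. Rpl28, whose promoter is shown above, went from 5.8, 4.02, 4.24, 5.09 and 3.56 CPM to 3.19, 2.91, 2.9, 2.75 and 3.34 CPM, where its 24h values were the tightest of its 6 groups (-0.53 ± 0.17, adjusted p = 0.0355). Of the 3 stalk proteins, Rplp0 (-0.40 ± 0.10, adjusted p = 0.0145) and Rplp2 (-0.43 ± 0.13, adjusted p = 0.0293) were among the falls. Rps6, with the longest run of pyrimidines shown, read 1.83, 1.5, 1.19, 2.15 and 1.4 CPM and 1.73, 0.701, 0.704, 1.67 and 1.32 CPM (blocked -0.43 ± 0.23, edgeR adjusted p = 0.178).

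Against ctrl, the Cacnb3-/- 24h libraries had 32 of 75 members with a positive log2 fold change and a median of -0.06. In edgeR 0 members and 0% of all genes passed, DESeq2 called 0, and at an unadjusted p under 0.05, 5 members were lower and 1 higher, against 5.45% and 5.33% of all genes. Rpl28 (-0.65 ± 0.18) and Rpl12 (-0.83 ± 0.22) had the smallest adjusted p (0.444 for both). The culture as a block is only an alternative here, since the pairing did not hold in p974s843. It called 1 member, Rpl28 (-0.65 ± 0.17, edgeR adjusted p = 0.0416).

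The difference between the genotypes in these changes was tested directly. For ctrl to 0p5h, 0 members and 0% of all genes passed in edgeR and 0 members had an unadjusted p under 0.05, against 0.223% of all genes. For ctrl to 24h, 0 members and 0% of all genes passed, and 6 members were lower at an unadjusted p under 0.05 (2.06% of all genes). For 0p5h to 24h, 0 members and 0% of all genes passed, and 8 were lower at an unadjusted p under 0.05 (2.78% of all genes). DESeq2 called 0 members in each. Rpl12 led the last of these, with a change of -0.84 ± 0.32 in Cacnb3-/- relative to WT (edgeR adjusted p = 0.680, 0.108 with the culture as a block), followed by Rpl36 (-0.79 ± 0.30). A fall particular to Cacnb3-/- was thus not shown.

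Other genes of the translation machinery were counted as fixed lists. In Cacnb3-/- against WT no list had a called gene in edgeR. Of the mitochondrial ribosomal protein genes, 59 of 76 had a positive estimate in ctrl (median 0.13) and 58 of 75 in 0p5h (median 0.15), where 53.6% and 53.1% of all genes did. At an unadjusted p under 0.05, 16 and 20 were higher, against 7.95% and 8.36% of all genes. At 24h, 43 of 75 were positive (median 0.04), with 18 higher and 7 lower against 20.1% and 18.3%. Of 40 ribosome biogenesis genes, 32 and 34 had a positive estimate. Of 17 genes of the mTOR and S6 kinase pathway, 7 and 6 did, with Mtor itself at -0.62 ± 0.21 in ctrl and -0.60 ± 0.20 in 0p5h libraries. At 24h the fusion gene Fau, outside the symbol rule, had an estimate of -0.78 ± 0.30, and the paralogs Rpl39l and Rpl22l1 had 2.14 ± 0.54 and 1.35 ± 0.38 (edgeR adjusted p = 0.0515 for both). For 24h against 0p5h in Cacnb3-/-, the blocked fit called 9 of 30 translation factor and other TOP genes lower and 1 higher, against 14.4% and 14.2% of all genes.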

How the data were processed

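The authors deposited a table of raw read counts per gene, not normalised. Per the file header the counts were made with featureCounts 1.5.1 on exons of Ensembl 79 (GRCm38), from alignments of read 1, with no option for strand, several alignments, overlapping genes or pairs. Per the labels STAR 2.4 and mm10 were used upstream on poly(A) libraries, while the paper names GRCm39, so the header's build is used for gene positions. Gene IDs were matched to GENCODE M39 symbols (89.4% matched).

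TMM-normalised CPM and RPKM were computed from the counts (edgeR 4.0.16, R 4.3.3). Comparisons used filterByExpr and edgeR's quasi-likelihood test on all genes, adjusted over all genes (Benjamini-Hochberg, threshold 0.05), within the groups compared, with DESeq2 1.42.0 as an alternative. The scripts were tested on simulated data. Replicates are cultures, and where they are not separate animals the p-values measure only the spread between these samples. Depth was 8237393 to 32164225 counts per library. Of 30 pairs of libraries with the same culture number, 29 deviated together from their group means (r over 0.1 over 13755 genes, from 0.0891 to 0.824), and the exception was Cacnb3-/- p974s843 between ctrl and 24h. The culture block is therefore given beside every other set comparison, and for that one only as an alternative.

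Members, lists and alternatives were chosen with earlier results of these data known. Named were the members fixed by role, the 2 with the smallest adjusted p in each comparison (none was called in the main edgeR fit, which has no block), the 5 highest and 5 lowest by RPKM, the 5 most and 3 least variable against the members' median, and those under the filter. Some items that these rules name are not reported here.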

Additional observations from a re-analysis of the deposited data

Results flagged for a closer look

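Each group of 5 libraries was searched for a library far from the other 4 (Dixon's ratio) in 41 named members and in 2 summaries of all members, their share of counts and their median deviation. Of 258 groups, 18 had one (6.98%), where chance gives about 1 in 20.

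At 24h, the WT library of p974s856 stood far above the other WT cultures in Rplp0 (2049 CPM), Rplp1 (1248 CPM), Rplp2 (1111 CPM) and Rpl8 (1548 CPM). The GC slope of that library was 0.565, the highest of the 30, and its part in these values was not tested. The Cacnb3-/- library of p974s865 at 24h was above the other 4 in Rpl10 (12.8 CPM), Rpl10a (19.5 CPM), Rpl18 (147 CPM) and Rpl23a (0.412 CPM). It was also the only Cacnb3-/- library of that set with a GC slope above 0.

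WT p974s864 was high in Rpl10a (25.5 CPM) and Rps27a (6.58 CPM) at 24h and in Rpl24 (1.06 CPM) at 0p5h. WT p974s855 was low in Rpl11 at ctrl (2.30 CPM) and in Rpl12 at 0p5h (23.3 CPM). Cacnb3-/- p974s852 was low in Rpl18 (107 CPM) and Rpl8 (726 CPM) at ctrl and in Rpl11 (4.32 CPM) at 0p5h. Cacnb3-/- p974s851 was high in Rpl39 at 0p5h (88.8 CPM), and Cacnb3-/- p974s853 in Rps14 at ctrl (1121 CPM).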

How the results depend on the processing

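In the main edgeR fit, without the block and with the filter, no member was called in any comparison. The count of called members stayed at 0 under all alternatives for Cacnb3-/- against WT in ctrl, for 24h against 0p5h in WT, for 0p5h against ctrl in Cacnb3-/- and for the 3 differences between genotypes. For Cacnb3-/- against WT at 24h it became 16 with DESeq2 (13.2% of all genes higher and 13.2% lower), 9 with no filter on low counts (2.47% and 2.42% of 25806 unfiltered genes) and 19 with all 30 libraries in 1 fit (14.3% and 14.7%), and ran from 0 to 21 with a culture left out (14 without WT p974s864, 21 without Cacnb3-/- p974s865). DESeq2 called 5 members at 0p5h (0.446% of all genes higher) and 9 with libraries summed (3.05% of all genes higher). For 24h against 0p5h in Cacnb3-/-, DESeq2 called 2 (1.68% of all genes lower). No filter called 1 and all 30 libraries 2, where the share of all genes is not given.

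The culture as a replicate block called 2 members for 0p5h against ctrl in WT, where 3.29% of all genes were higher (4 with the GC trend removed too). It called 24 for 24h against 0p5h in Cacnb3-/- (24 with the GC trend removed, 11.9% of all genes lower and 12.4% higher). Where the pairing did not hold in all cultures, it called 1 for 24h against ctrl in Cacnb3-/-. The block with the GC trend removed called 1 for 24h against ctrl in WT. The share of all genes is not given for the counts of 4 and 1. Without 1 Cacnb3-/- culture, the blocked count for 24h against 0p5h was 7, 8, 17, 14 and 38, in the order p974s843 first and p974s865 last. The share of all genes called lower was 7.58% without p974s843, 7.04% without p974s851 and 20.7% without p974s865. It is not given for the counts of 17 and 14. The block changed no other call. The blocked fits without a culture, the block with the GC trend, and lane as a term were chosen after seeing the data.

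The genotype difference of Rplp2 at 24h reversed to -0.013 with lane as a term and ran from -0.069 to 0.374 with a culture left out. That of Rplp1 at 24h reversed to 0.39 with the GC trend removed and ran from -0.16 to 0.26. That of Rplp0 in ctrl ran from -0.031 to 0.124. The cause was not tested. By CPM 0 of the 5 highest members by RPKM kept that place, and outside mitochondrial counts the mean member share was 2.10% in Cacnb3-/- 24h and 2.22% in Cacnb3-/- ctrl libraries. The lowest 5 members by RPKM had mean counts of 4.6 (Rpl23a) to 71.0 (Rpl5) per library, and the change detectable at such counts was not computed.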

Other observations

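The 268 Rpl and Rps pseudogenes took 0.00838 to 0.0163% of counts per library, far less than the genes themselves, and their counting leaves out reads that also align to a gene.

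Among translation factors and other TOP genes at 24h, Npm1, a nucleolar chaperone, had a log2 difference of 1.02 ± 0.24 between Cacnb3-/- and WT (edgeR adjusted p = 0.0515), and Tpt1, an abundant TOP mRNA, had -1.35 ± 0.51 (adjusted p = 0.0786). The mitochondrial ribosomal protein genes Mrpl1 and Mrps34 were at 0.84 ± 0.19 and -1.24 ± 0.33 in the same comparison (adjusted p = 0.0515 for both). The genes named do not stand for their lists. Estimates were positive for 13 of the 30 translation factor and other TOP genes tested in this comparison. The same held for 43 of 75 mitochondrial ribosomal protein genes and 50.9% of all genes. Of the 5 proliferation markers tested there, 2 had a positive estimate (median -0.21), and 1 was lower at an unadjusted p under 0.05, Mcm5 (-0.69 ± 0.22, edgeR adjusted p = 0.0561).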
